A study of Phaseolus coccineus with 4 samples.

Results

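In globular-stage embryos of the scarlet runner bean, Phaseolus coccineus, 63 abundant genes had deposited transcript levels within a 2-fold range across both regions. These genes were chosen by their values. Each had at least 200 RPKM (reads divided by gene length and by the depth of the library) in all 4 libraries, and its highest value was under 2 times its lowest. They were 63 of the 222 genes with at least 200 RPKM in all 4 libraries, or 28.4%, and 63 of the 19883 genes listed in any library. High level and evenness are therefore properties of the choice. They are described here and not tested.

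The libraries came from the embryo proper and the suspensor of the cultivar Hammond's Dwarf Red Flower, with 2 biological replicates of each region. Seeds of 1.6 to 2.5 mm were fixed 6 days after hand pollination, and the regions were captured with a laser from sections 6 microns thick, so all 4 libraries share the plant material, fixation and amplification of 5 ng of total RNA. No treatment or genotype separates the groups. The labels do not say how many embryos or plants entered a library, nor whether equal replicate numbers mark shared material, so the spread between replicates may be partly technical. The recovered depth was 32855045 to 56899297 reads per library.

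The embryo proper gives rise to the plant body. The suspensor is a short-lived stalk that anchors it in the seed, passes nutrients and hormones to it and does not contribute to the mature plant. Both descend from the zygote. In plant cells generally, genes for basic functions such as protein synthesis, protein turnover, the cytoskeleton and energy metabolism are transcribed in most cell types, and genes of steady level are the usual references for comparing tissues. Whether the 63 genes belong to such classes was not examined, because the files pair no ID with a name and 0 of the 63 IDs matched the 34063 genes of the RefSeq table used here (assembly Pcoc_1). For the same reason no marker of either region could be checked, and no sequence is shown.

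The 63 genes spanned a wide range of levels. Their mean over the 4 libraries ran from 228 to 19475 RPKM, with a median of 458 and quartiles of 346 and 725. In all, 35 genes lay under 500 RPKM, 28 had a mean of 500 or more, and 8 of these reached 1000. The other 159 abundant genes were higher, with a median of 819 RPKM, and 64 of them reached 1000. The lowest number of reads behind any value was 2966, in embryo proper replicate 1, and the median number was 21128 to 35324 by library. At 2966 reads the counting error is 1.84%, and reads amplified without molecular identifiers are not independent molecules, so this covers counting alone.

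**Figure D1:**
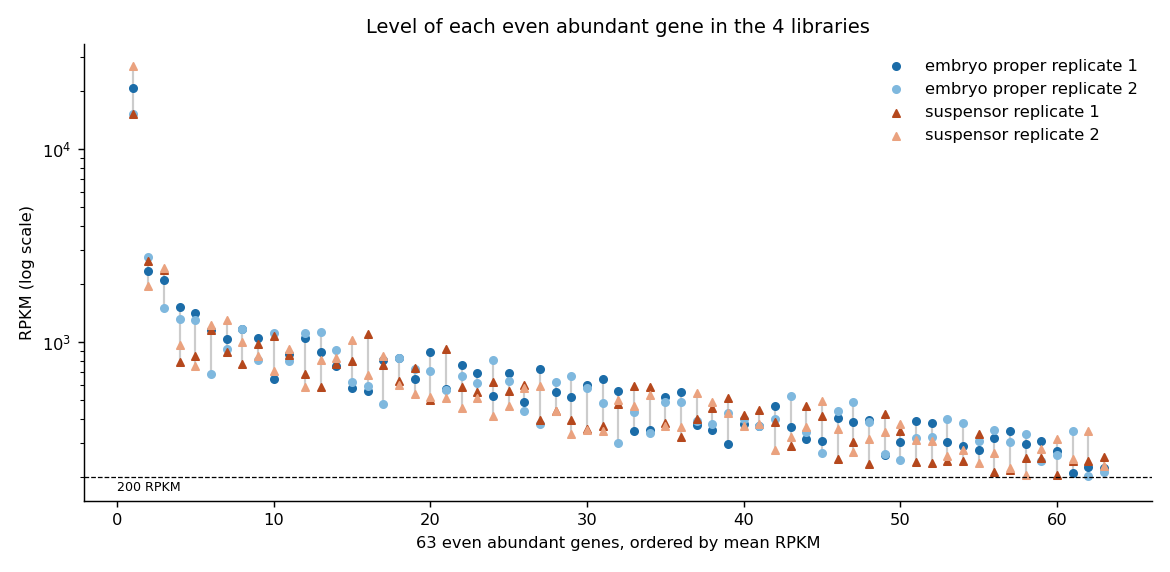
RPKM (log scale) of each of the 63 even abundant genes in the 4 libraries, ordered by mean; circles are embryo proper libraries, triangles suspensor libraries, and grey bars join the lowest and highest value. A single gene stands near 19475 RPKM, and the others lie between 228 and 2418 RPKM on average, with neither region on one side throughout.

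One gene stood far above the rest. In Phvul.011G045000 the embryo proper replicates 1 and 2 reached 20759.7 and 15143 RPKM, and the suspensor replicates 1 and 2 reached 15176 and 26820.4 RPKM. The highest and the lowest value came from different regions, and embryo proper replicate 2 and suspensor replicate 1 were almost equal, so the regions overlapped. It was the most abundant gene of both embryo proper libraries and had rank 4 and rank 3 in suspensor replicates 1 and 2. It was read 424385 to 1077359 times per library, and its recovered length was 853 bases. It alone made up 2.96% and 2.11% of the summed RPKM of the embryo proper libraries, and 1.96% and 3.20% of that of the suspensor libraries.

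The next 4 genes by mean level fell into different patterns. Phvul.001G253700 had 2331 and 2759 RPKM in the embryo proper and 2635 and 1946 RPKM in the suspensor, and the regions overlapped. Phvul.011G026900 had 2098 and 1499 RPKM in the embryo proper and 2357 and 2402 RPKM in the suspensor, where embryo proper replicate 2 was the low library. These genes ranked between 21 and 62 in the 4 libraries. Phvul.003G187500 had 1512 and 1314 RPKM in the embryo proper and 784 and 964 RPKM in the suspensor. Phvul.006G056900 had 1417 and 1297 RPKM in the embryo proper and 839.7 and 753 RPKM in the suspensor. In both of the last named genes each embryo proper library was above each suspensor library.

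Together the 63 genes held similar shares of the transcript signal in both regions. This follows largely from the rule, which kept each gene within 2-fold, as the summed RPKM was 701878 to 837969 by library. Their share of the summed RPKM was 8.38% and 7.28% in embryo proper replicates 1 and 2, and 6.54% and 7.31% in suspensor replicates 1 and 2. The means were 7.83% ± 0.777 and 6.93% ± 0.544 (SD, n = 2) in that order, and the libraries of the regions overlapped. An exact permutation test of 2 libraries against 2 cannot give a two-sided p below 0.333, so none was made. Without Phvul.011G045000, which was left out after its values were seen, the embryo proper libraries had shares of 5.42% and 5.18% and the suspensor libraries 4.58% and 4.11%. The regions then no longer overlapped, and the means were 5.30% ± 0.176 and 4.35% ± 0.332 (SD, n = 2). The 10 highest genes of any library include Phvul.011G045000. With all of these left out of both the set and the total, the order of the regions turned. The shares were then 6.38% and 5.95% in the embryo proper libraries against 7.04% and 7.86% in the suspensor libraries. The other 159 abundant genes held 45.9% ± 6.88 in the suspensor, against 34.5% ± 0.631 in the embryo proper (SD, n = 2). Phvul.005G018000 alone held 16.1% and 28.5% of suspensor replicates 1 and 2, and 0.40% and 0.29% of embryo proper replicates 1 and 2. The higher share in the suspensor thus rests on few genes, and 129 of the 159 had the higher mean in the embryo proper. A share depends on what the other genes of the library take, and fewer cells of a type and less RNA per cell cannot be told apart in these bulk samples.

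Within the 2-fold range, the 63 genes had a better median rank in the suspensor. The median rank of the 63 genes was 216 and 249 in embryo proper replicates 1 and 2, but 177 and 161 in suspensor replicates 1 and 2. Of the 63 genes, 10 and 9 were among the 100 most abundant of the embryo proper libraries, and 16 were among the 100 most abundant of each suspensor library. Their median RPKM was 516 and 480.5 in the embryo proper and 456 and 457 in the suspensor, so the better ranks did not go with a higher median level. A rank also depends on the other genes, and 129 of the other 159 abundant genes had the higher mean in the embryo proper. Since the rule held the 63 genes within 2-fold, the ranks and counts describe the set only.

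The evenness itself varied among the genes. The ratio of the highest to the lowest value had a median of 1.65 and quartiles of 1.44 and 1.78. It was under 1.2 in 3 genes and under 1.5 in 20. The most even was Phvul.011G125800, with 374 and 397 RPKM in the embryo proper and 419 and 368 RPKM in the suspensor, a ratio of 1.14. Phvul.007G026100 had 869.8 and 799 RPKM in the embryo proper and 851 and 917 RPKM in the suspensor, a ratio of 1.15. Phvul.001G167100 had 223 and 211 RPKM in the embryo proper and 252 and 226 RPKM in the suspensor, a ratio of 1.19. In the last of these both suspensor libraries were slightly above both embryo proper libraries, while the first and second overlapped.

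The genes near the limits differed little across them. Just inside the limit on the ratio was Phvul.007G003500, with 516 and 666 RPKM in the embryo proper and 391 and 334 RPKM in the suspensor, a ratio of 1.99. It was followed by Phvul.002G307600, with a ratio of 1.95, and by Phvul.009G179900, with a ratio of 1.94. Just outside lay Phvul.001G100400 with a ratio of 2.04, Phvul.010G031400 also with 2.04, and Phvul.006G075500 with 2.05. At the limit on the level, the lowest values inside were 200.9 RPKM, for Phvul.007G200800, and 203 RPKM, for Phvul.005G058100. The nearest genes below it with a ratio under 2 were Phvul.003G117600, at 199 RPKM in its lowest library, and Phvul.011G155200, at 197 RPKM. Phvul.011G155200 was as even as the most even genes of the set, with a ratio of 1.16.

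With the values as deposited, evenness was uncommon at every level, and its share was not largest among the highest genes. Of 410 genes whose mean lay between 200 and 1000 RPKM, 76 (18.5%) had a ratio under 2, and 55 of these met the rule. Of 88 genes whose mean was 1000 RPKM or more, 8 (9.09%) did, and all 8 met it. The share was 16.4% of 1368 genes between 50 and 200 RPKM, 9.71% of 5181 genes between 10 and 50 RPKM, and 2.75% of 7279 genes between 1 and 10 RPKM. Read numbers fell with these classes, from a median of 76106.5 reads per library at 1000 RPKM or more to 265.5 in the lowest class. Their part in the ratio was not tested. The shares by level were not computed under the other scalings described below, where the rule gave 54 to 87 genes.

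With the values as deposited, the other 159 abundant genes missed the rule mainly by a difference between the regions rather than between replicates. In 137 of them the replicates of each region lay within 2-fold of each other, and of those 118 had the higher mean in the embryo proper and 19 had it in the suspensor. In the remaining 22, the replicates of at least 1 region were 2-fold or more apart, which was the case in the embryo proper for 13 genes and in the suspensor for 10. The ratio of highest to lowest had a median of 3.31 in the 159 genes and was under 2.5 in 32. The most uneven reached 115.

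**Figure D2:**
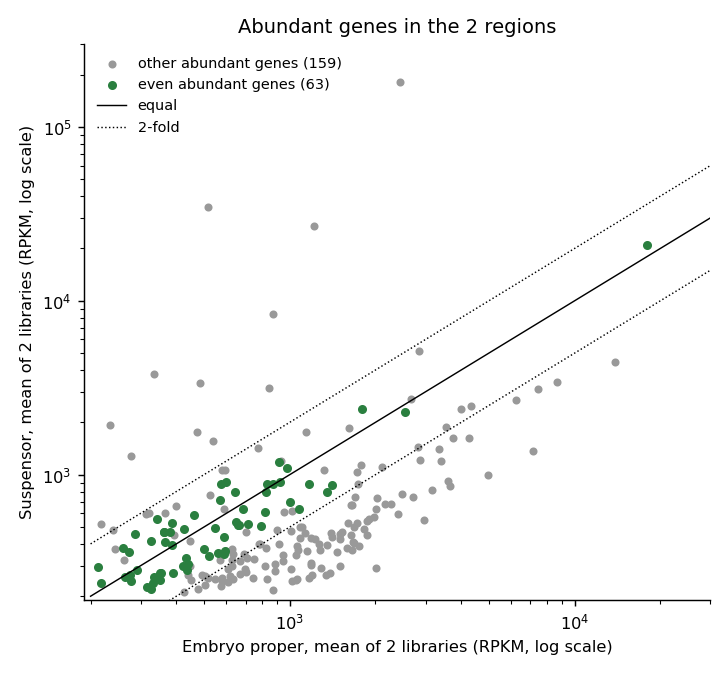
Mean RPKM of 2 suspensor libraries against the mean of 2 embryo proper libraries (both log scale) for the 222 genes with at least 200 RPKM in all 4 libraries; the solid line marks equal values and the dotted lines 2-fold. The 63 even genes (green) lie between the dotted lines by their choice, and 129 of the 159 others (grey) have the higher mean in the embryo proper.

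Within the 2-fold window, the genes still differed between regions in both directions. The mean of log2(RPKM + 1) was higher in the embryo proper for 38 genes and in the suspensor for 25, and it was higher in the embryo proper for 62.2% of the 13527 genes tested. Log2 fold changes on that scale, suspensor over embryo proper, had a median of -0.12 and ran from -0.77 to 0.70. The median over all tested genes was -0.45 and that of the other 159 abundant genes was -1.25. Both embryo proper libraries were above both suspensor libraries in 28 of the 63 genes, beside 37.5% of all tested genes. Both suspensor libraries were above in 15 genes, beside 18.1% of all tested genes. In the other 20 genes the regions overlapped. Since the rule used these values, the counts describe the set only.

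None of the 63 genes passed the test between regions. The test was limma on log2(RPKM + 1) over the 13527 genes that reached 1 RPKM in 2 or more libraries, with Benjamini-Hochberg adjustment over all of them. It called 0 of the 63, while 6.82% of all tested genes were called at an adjusted p under 0.05. At an unadjusted p under 0.05 there were 5 of the 63, beside 28.2% of all tested genes. A count of 0 follows largely from the rule, since the smallest called log2 fold change among all tested genes was 1.19 in size and no gene of the set could reach 1. With 2 libraries per region the standard errors of the 63 log2 fold changes were 0.251 to 0.416. A gene that misses the test is thus not shown to be equal in both regions.

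The 5 genes with the smallest p were named after their values were seen. Phvul.006G056900 had the lowest, with a log2 fold change of -0.77 and a standard error of 0.25 (limma, adjusted p = 0.108). With limma's voom on reads recovered from the RPKM steps it was called, at -0.77 with a standard error of 0.16 (adjusted p = 0.0177), where 13.1% of all tested genes were called. With quantile normalization limma called Phvul.011G045000 alone of the 63, and 5.93% of the genes tested there, while a fit with the replicate number as a term called 0 of the 63 and 16.1% of all tested genes. Phvul.009G241200 had 600.1 and 575 RPKM in the embryo proper and 352 and 349 RPKM in the suspensor, with replicates nearly identical in both regions. Its log2 fold change of -0.74 had a standard error of 0.28 (limma, adjusted p = 0.147). Phvul.002G177700 had 1048 and 1105 RPKM in the embryo proper and 684 and 587 RPKM in the suspensor, a log2 fold change of -0.76. Phvul.003G187500, described above, had a log2 fold change of -0.70. The sizes depended on the scaling. With the median ratio scaling and with quantile normalization, Phvul.006G056900 stood at -0.24 and -0.20, and Phvul.003G187500 at -0.16 and -0.14. Phvul.005G144100 was the only one of the 5 with the higher values in the suspensor, at 348 and 335 RPKM in the embryo proper and 580.4 and 532 RPKM in the suspensor, a log2 fold change of 0.70 (limma, adjusted p = 0.173).

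Replicates of the 63 genes were closer than the regions were. The median absolute log2 difference between replicates was 0.24 for the suspensor and 0.18 for the embryo proper. Between libraries of different regions it was 0.33 to 0.46. In the other 159 abundant genes the replicates were 0.33 and 0.29 apart, and libraries of different regions 1.34 to 1.49. Over all tested genes, which include many of low level, the replicates were 0.73 and 0.86 apart. The rule keeps all libraries of the 63 genes less than 2-fold apart, so their smaller differences follow from the choice. In 32 of the 63 genes the difference between the region means was larger than both differences between replicates, beside 44% of all tested genes.

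**Figure D3:**
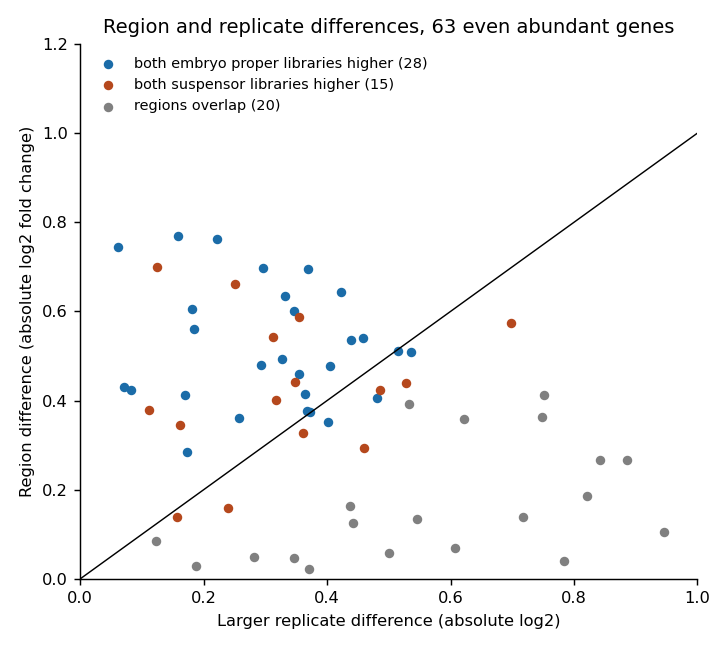
Absolute log2 fold change between regions against the larger of the 2 absolute log2 differences between replicates, for the 63 even abundant genes; the line marks equal size. Above the line are 32 genes. The 28 genes with both embryo proper libraries higher (blue) and the 15 with both suspensor libraries higher (red) lie mostly above it. The 20 with overlapping regions (grey) all lie below it, which the grouping requires.

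The groups by direction were also described by level and spread. The 28 genes with both embryo proper libraries higher had a median level of 448 RPKM, a median ratio of 1.68 and a median log2 fold change of -0.50. The 15 with both suspensor libraries higher had a median level of 416 RPKM, a median ratio of 1.60 and a median log2 fold change of 0.42. The 20 overlapping genes had a median level of 650.0 RPKM and a median ratio of 1.58. Their replicates were farther apart, by a median of 0.36 (embryo proper) and 0.35 (suspensor) on the log2 scale. These medians were 0.18 and 0.21 in the first group and 0.11 and 0.25 in the second. The grouping itself favours this, since regions overlap only where a replicate difference is at least as large as the region difference.

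In part of the set a single library made most of the unevenness. In 10 of the 63 genes the ratio over all 4 libraries was at least 1.5, but 3 of the libraries lay within 1.2-fold of each other. Embryo proper replicate 2 was the library apart in 6 of these, low in 4 and high in 2. Suspensor replicate 1 was apart in 2 genes, and each of the other libraries was apart in 1. Phvul.008G189200, for example, had 684.5 RPKM in embryo proper replicate 2, and 1153, 1145 and 1220.0 RPKM in embryo proper replicate 1 and suspensor replicates 1 and 2. Phvul.004G012100 had 478 RPKM in embryo proper replicate 2 and 803, 755 and 842 RPKM in the other libraries in the same order. Phvul.002G045300 had 916 RPKM in suspensor replicate 1, and 573, 565 and 511 RPKM in the other libraries in order. These genes were chosen as examples after their values were seen. No library was the high or the low one throughout. Embryo proper replicates 1 and 2 held the highest value of 20 and 17 genes, and each suspensor library held that of 13. The lowest value was in embryo proper replicates 1 and 2 for 12 and 15 genes, and in suspensor replicates 1 and 2 for 16 and 20.

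Gene length was a property that the rule did not use directly. Because the reads behind each RPKM must be whole numbers, the length of each gene could be recovered from its 4 values. For a small share of genes this gives a whole fraction of the length in its place. The median recovered length of the 63 even genes was 1367 bases (95% interval of the median from ranked values 1100 to 1586). It was 899 bases (839 to 975) in the other 159 abundant genes. The difference depended on the set. The genes that met the rule under the median ratio scaling had a median of 1092 bases (936 to 1246). The 20 genes of at least 500 RPKM in all libraries had one of 1225.5 bases (900 to 1761). Both of these intervals overlap that of the 159 genes. The 159 were, however, left out by the rule as deposited, and the median ratio set may share genes with them. Genes left out under those other settings were not measured for comparison. Over all tested genes the median was 1628 bases. Genes under 1000 bases made up 34.9% of the even genes (22 of 63), 61.6% of the other abundant genes (98 of 159) and 19.8% of all tested genes. The intervals here and below treat genes as independent replicates, which they are not. Whether intervals overlap is thus no test, and since no other was made, these values are descriptions.

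**Figure D4:**
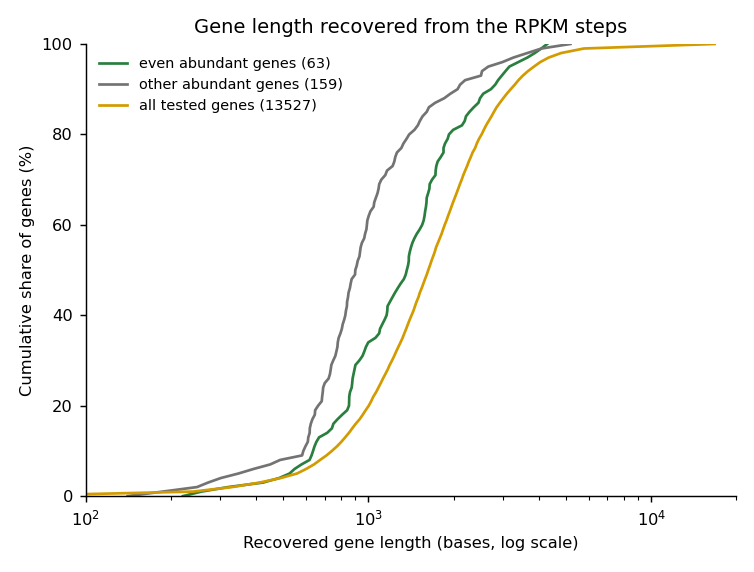
Cumulative share of genes (%) by recovered gene length (bases, log scale) for the 63 even abundant genes, the 159 other abundant genes and the 13527 tested genes. The curve of the even genes lies between the others, with medians of 899, 1367 and 1628 bases from left to right.

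Among the other abundant genes, those higher in the embryo proper had the shorter median. The 101 of them with a mean in the embryo proper at least 2 times that in the suspensor had a median length of 844 bases (95% interval 798 to 914), and 69.3% were under 1000 bases. The 12 with a mean at least 2 times higher in the suspensor had a median of 1535 bases (95% interval 850 to 1754), an interval that overlaps those of both the 101 and the even genes. The even genes were the longer ones in each class of level. Between 200 and 500 RPKM their median was 1438 bases (n = 35) against 1086 bases in the other abundant genes (n = 38). Between 500 and 1000 RPKM it was 1186 bases (n = 20) against 832 bases (n = 57), and at 1000 RPKM or more it was 1477 bases (n = 8) against 919.5 bases (n = 64).

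Within the even set, length went with neither direction nor level to a visible degree. The median length was 1306.5 bases in the 28 genes with both embryo proper libraries higher, 1390.0 bases in the 15 with both suspensor libraries higher and 1368.5 bases in the 20 others. Across the 63 genes, Spearman's rho between length and mean RPKM was -0.06 and that between length and the ratio was -0.13. The shortest genes were Phvul.002G161100, at 221 bases, with 344 and 431 RPKM in the embryo proper and 591 and 465 RPKM in the suspensor, and Phvul.002G050200, at 279 bases, with 295 and 427 RPKM and 511 and 427 RPKM. Their values rested on 2966 to 7431 and 3211 to 8108 reads per library. The longest were Phvul.004G012100, at 4284 bases, and Phvul.007G026100, at 3963 bases and among the most even genes of the set.

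The IDs carry a number field that groups genes, and the 63 genes were spread over all 11 of its values. Field 002 and field 009 each held 10 of them, and field 010 held 1. As a share of the tested genes of a field, the members ran from 0.132% in field 010 to 0.726% in field 011. Only 1 pair of members had successive numbers, Phvul.009G168400 and Phvul.009G168500, at means of 1033 and 416 RPKM. A second pair, Phvul.009G095400 and Phvul.009G095600, had numbers 200 apart. Levels within a pair differed, so the values are not copies of each other, although how multiply matching reads were counted is not given in the sources used here.

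Which genes counted as even depended on how the libraries were scaled. As deposited, RPKM is relative to all reads of a library, and the 10 highest genes of a library held 30.9% and 44.6% of the suspensor libraries' summed RPKM, against 12.3% and 10.4% for the embryo proper. Under 4 other scalings the rule gave 54 genes (every library to the same sum), 72 (quantile normalization), 72 (depth counted without the 10 highest genes of any library, added after the data were examined) and 87 (median ratio). They shared 50, 41, 44 and 39 genes with the 63. This was 92.6%, 56.9%, 61.1% and 44.8% of the rescaled sets, and 79.4%, 65.1%, 69.8% and 61.9% of the 63. In all 5 sets were 27 genes, among them Phvul.001G253700, Phvul.007G026100 and Phvul.011G125800. Of these 27, 23 had the higher mean in the embryo proper as deposited, beside 38 of the 63. Of the 15 genes with both suspensor libraries higher, 2 were among the 27. In the whole rescaled sets the count was 25 of 54 (same sum), 66 of 72 (quantile), 64 of 72 (10 highest) and 83 of 87 (median ratio). All but the same sum scaling moved log2 fold changes toward the suspensor, as given below, so these counts follow in part from the scalings.

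**Figure D5:**
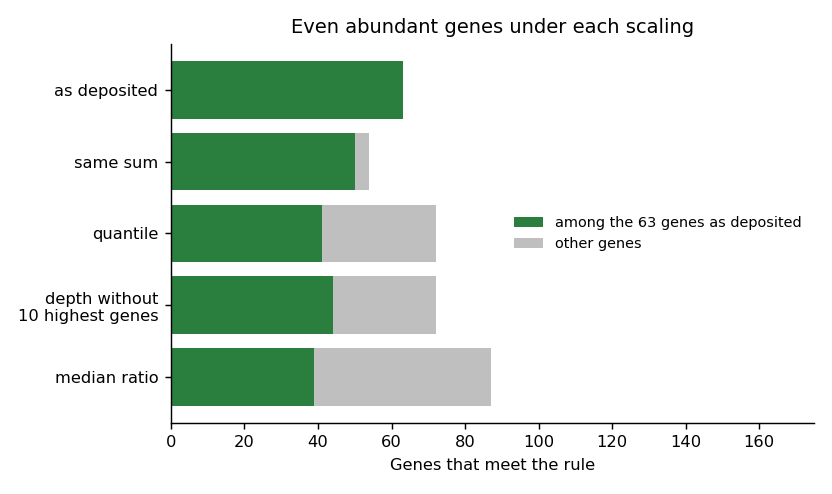
Number of genes that meet the rule (at least 200 in all 4 libraries, highest under 2 times lowest) with the values as deposited and under 4 other scalings; green marks genes among the 63 as deposited and grey marks others. The sets hold 63, 54, 72, 72 and 87 genes from top to bottom, of which 63, 50, 41, 44 and 39 are shared.

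The direction within the set moved with the scaling too. With the values as deposited, the median log2 fold change of the 63 genes was -0.12, and 25 were higher in the suspensor. With the median ratio scaling it was 0.41, and 51 of the 63 were higher in the suspensor. It was 0.22 with quantile normalization (45 genes), 0.25 without the 10 highest genes (40 genes) and -0.31 with the same sum (19 genes). The median over all tested genes moved as well, from -0.45 to -0.01, -0.03, -0.14 and -0.61 under the same scalings in that order. The difference between the medians of the 63 genes and of all tested genes was 0.25 to 0.42 on the log2 scale. It follows from the choice of genes near a fold change of 0, and the scalings that multiply a whole library shift all genes nearly alike, so these values are not separate evidence.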

How the data were processed

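RNA was sequenced from 4 laser-captured samples, 2 per region, and the authors deposited an RPKM table for each. Bowtie 0.12.7 and bedtools were used, per the submitters' processing notes. Build, annotation, strand and the handling of multiply matching reads are not stated in the sources used here. Genes with near-identical copies or overlapping neighbours could thus carry each other's signal. The IDs begin with Phvul, and 0 of them matched the P. coccineus assembly Pcoc_1. Whether the gene models and the recovered lengths are those of P. coccineus was therefore not established, nor was any effect of mapping to another species. Amplification of 5 ng of RNA and 10 cycles of PCR add variation between libraries.

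The tables were joined by ID, with a missing gene as 0, and the rule was applied to RPKM as deposited. For the fit, genes with at least 1 RPKM in at least 2 libraries were taken as log2(RPKM + 1), and limma 3.58.1 (R 4.3.3, eBayes with a trend, two-sided) had region as its single term. The fit was tested on simulated data drawn from its own fitted means and spread. The changes planted there were 2-fold or larger, so it does not show how well smaller differences, such as those in the 63 genes, are found. Whole reads and lengths (50 to 20000 bases) were recovered for all 63 genes, with a tolerance of 0.02 reads. Recovered reads summed to 97.3% to 98.7% of the recovered depths. Of the lengths of all listed genes 37.8% were multiples of 3, and of those of the 63 genes 26.98% were. Median ratio factors were taken over the genes above 0 in all 4 libraries. Figures and descriptions used Python 3.11.15.

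The members, lists and tests were chosen with earlier results of these data known. The genes named are the 5 highest, the 3 most and 3 least even, the 2 of lowest minimum, the 2 shortest and 2 longest, and the nearest 3 and 2 outside the limits; others are said to be chosen by their values or are examples of a count given beside them. The gene lists by name were not used, for want of names for the IDs. The alternatives were other limits, scalings, pseudocounts, filters and variance settings, voom, a replicate block and each library left out. Depth without the 10 highest genes and the share without the most abundant gene were added after the data were examined.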

Additional observations from a re-analysis of the deposited data

How the results depend on the processing

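The set of 63 genes held 137 genes with a limit of 100 RPKM, 20 with 500 RPKM, 20 with a ratio under 1.5 and 125 with a ratio under 3. It held 86 to 101 when the rule was applied to 3 libraries, which asks less, and the 63 were among them each time. No gene of the set was called in the main fit, with pseudocounts of 0.1 and 5 RPKM, without a filter, with a minimum mean of 5 RPKM, with the median ratio, same sum and 10-highest scalings, other variance settings or any library left out (0 each time; limma adjusted p at least 0.0628). Without a filter 21 of all genes were called, and with a library left out 0 to 47, so a count of 0 there says little. With the replicate number as a term (replicate block), 0 were called, and nothing in the labels says that the numbers pair samples. The deviations of same-numbered libraries did not correlate (Pearson's r = -0.03 across tested genes), and that fit called 2182 of all tested genes against 922. Quantile normalization called 1 of the 63, Phvul.011G045000, with a log2 fold change of -2.71 (limma, adjusted p = 0.00246); this scaling gives the first rank of a library a fixed value, and the gene ranks first in the embryo proper alone. Voom on recovered reads called 1, Phvul.006G056900. The set's share of the summed RPKM was 7.83% (embryo proper) and 6.93% (suspensor). Without the 10 highest genes, Phvul.011G045000 of the set among them, it was 6.16% and 7.45%, so that the suspensor had the higher share. It was 5.30% and 4.35% without the most abundant gene, 7.41% and 7.18% of recovered reads, and 7.28% to 8.38% and 6.54% to 7.31% with a library left out. The median length was 1092 bases (936 to 1246) in the median ratio set, and 986 bases in other genes averaging 200 RPKM or more. Of 16 named genes of the set, 3 changed the sign of their log2 fold change under the median ratio scaling, 3 with quantile normalization, 3 with the same sum and 2 without the 10 highest genes. Each gene of the set had at least 2966 reads per library, and the part of depth in the results was not tested.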
